A study of Mus musculus with 4 samples.

Results

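The data concern 10 genes that ERK signalling induces and that in turn restrain it or carry it forward: the MAP kinase phosphatases Dusp1, Dusp4, Dusp5 and Dusp6, the Sprouty and Spred inhibitors Spry1, Spry2, Spry4 and Spred1, and the ETS transcription factors Etv4 and Etv5. They were taken by symbol from the deposited tables, where all 10 were found among 24411 listed genes, and all 10 were among the 11167 genes tested. The tables come from 4 bulk RNA-seq profiles of 4T1 cells, a mouse mammary carcinoma line that was grown with serum. Titles and genotype labels give 2 controls (control 1 and control 2) and 2 libraries labelled CD95ko. CD95 is the death receptor encoded by Fas. Per the labels' protocols, the CD95ko clones came from 4T1 cells that carried a lentiviral Cas9 with blasticidin selection; a pair of guides aimed at deleting exon 9 was transfected, and single cells were expanded. The protocols list RNA from control cells, the Cas9 line and 2 clones, and the titles do not say which control is which. Each knockout library is thus 1 clone, and single-cell cloning and the knockout cannot be told apart. Where nothing states separate cultures, the p-values refer to these libraries only. The limma SE and p-value of a gene also draw on the variance of the other tested genes, not on its own spread alone.

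The ERK cascade runs from receptor tyrosine kinases through Ras, Raf and MEK to the kinase ERK, which phosphorylates transcription factors and other targets. Active ERK raises transcription of its own brakes: DUSP proteins remove phosphate from ERK in the nucleus or the cytoplasm, and Sprouty and Spred proteins interfere between receptor and Raf. Etv4 and Etv5 belong to the PEA3 group of ETS factors and are used with Dusp6, Spry2 and Spry4 as transcript readouts of the pathway. In mammary epithelium and its tumours the pathway carries growth factor signals for proliferation and motility.

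Fas was listed at 49.4 and 39.2 TPM in controls 1 and 2, at 15.8 TPM in labelled knockout 1 and at 49.5 TPM in labelled knockout 2 (limma log2 fold change -0.63 ± 0.54 SE, adjusted p = 0.615). TPM expresses a level per length of transcript, scaled to the same total in each library. Because labelled knockout 2 was not below the controls and a gene-level value does not isolate exon 9, groups are named here as labelled and every direction refers to the labels. Sequencing depth is unknown from TPM, and between 11193 and 12010 genes were above 0. Tested genes had a lower median TPM in control 2 (16.3) than in the other 3 libraries (21.3 to 22.9). The 5 epithelial markers (Epcam, Cdh1, Krt8, Krt18 and Krt19) were all present, with sums of 2770 and 2852 TPM in the controls and 4948 and 8560 TPM in the labelled knockouts; their part in the results was not tested. Of 5 leukocyte markers, Ptprc, Cd3e, Adgre1 and Itgam were at 0 in every library, and Cd68 gave the whole sum of 42.1 to 44.6 TPM in controls and 17.8 to 146 TPM in labelled knockouts. All 3 endothelial markers were at 0, and the 5 fibroblast markers summed to 0.97 to 4.52 TPM, with Dcn and Pdgfrb at 0.

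The 10 genes did not share a direction. Dusp4, Spry1 and Etv5 were higher in both labelled knockouts than in both controls, Dusp1, Dusp5 and Spry4 were lower in both, and Dusp6, Spry2, Spred1 and Etv4 overlapped. Non-overlap in the higher direction was seen for 29.2% of all tested genes and in the lower direction for 18.3%, so 3 of 10 in each direction has to be read against those shares. In limma, 0 of the 10 passed an adjusted p of 0.05, as did 0.0537% of all genes (6 of 11167). At an unadjusted p under 0.05 there were 1 higher (Dusp4; 9.25% of all genes) and 2 lower (Dusp1 and Dusp5; 5.68% of all genes). Higher genes made up 62.0% of all those at that level, 51.9% under quantile normalization and 44.5% under median scaling. With either control left out, fewer of the 10 and fewer of all tested genes reached that level. Leaving out each library gave log2 fold changes of 0.87 to 1.30 for Dusp4, -1.67 to -0.69 for Dusp1 and -3.01 to -1.35 for Dusp5. The median log2 fold change of the 10 was 0.02, beside 0.13 over all tested genes. Their median absolute change was 0.74, beside 0.50 over all genes, while their median absolute difference between the controls was 0.31, beside 0.44 over all genes, and that between the labelled knockouts 0.43, beside 0.52. The order of the control differences depended on the scaling: it was 0.65 for the 10 genes beside 0.32 over all genes under quantile normalization, and 0.63 beside 0.35 under median scaling. In bulk RNA, fewer cells with a transcript and less of it per cell cannot be told apart.

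**Figure D1:**
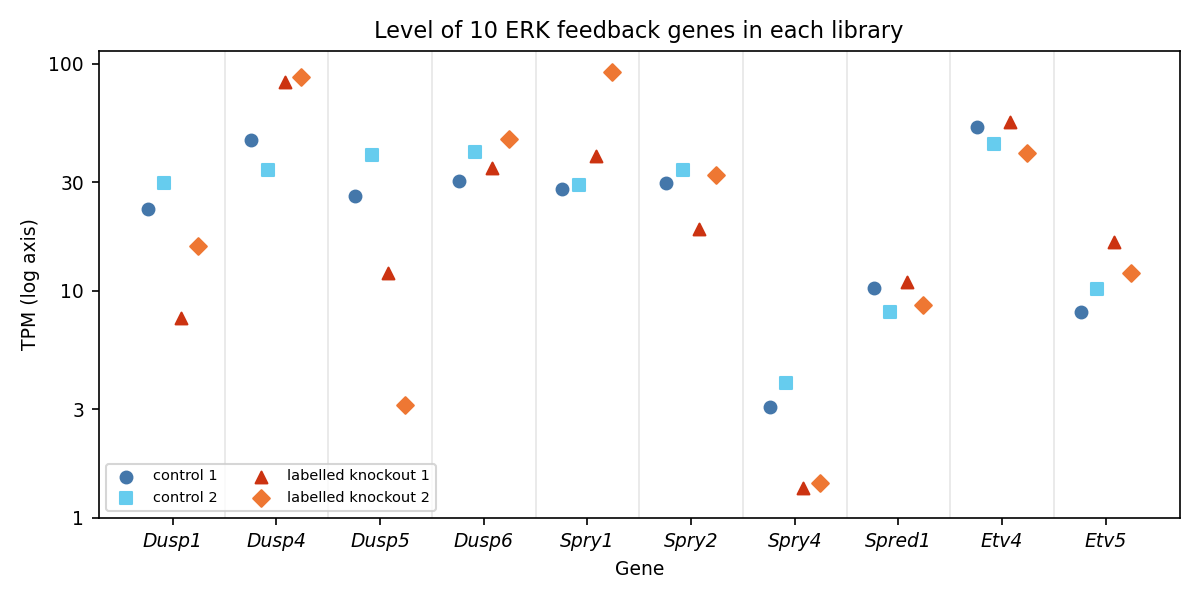
Level of each of the 10 genes in TPM on a log axis, with 1 point per library (circles and squares, controls 1 and 2; triangles and diamonds, labelled knockouts 1 and 2). Dusp4 stands at 82.6 and 87.1 TPM in the labelled knockouts above 46.0 and 34.0 TPM in the controls, and Dusp5 at 12.0 and 3.13 TPM below 26.0 and 39.7 TPM.

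Averaged over the 4 libraries, the TPM levels ran from Dusp4 (62.4 ± 26.4, SD, n = 4) through Etv4 (48.1 ± 6.88), Spry1 (47.2 ± 30.5), Dusp6 (38.1 ± 6.97), Spry2 (28.8 ± 6.99), Dusp5 (20.2 ± 16.1), Dusp1 (19.0 ± 9.58), Etv5 (11.7 ± 3.54) and Spred1 (9.52 ± 1.36) down to Spry4 (2.45 ± 1.27). Among neighbours in this order, Dusp6 exceeded Spry2 and Spred1 exceeded Spry4 by more than the larger SD, each in 4 of 4 libraries. The other 7 neighbouring pairs did not differ beyond their spread. This order pools the 2 groups: in both controls Etv4 was above Dusp4, and Spry1 was below Dusp6 and Spry2. Spry4 was thus the least abundant of the 10, and the pseudocount of 1 compresses its fold change.

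Promoter sequence is shown for Dusp5 and Dusp1, which were lower among the 4 Dusp genes of the 10. It is also shown for Spry1, which was higher, and for Dusp6, whose groups overlapped. Each run is the 250 bases before the annotated start, 5′ to 3′ on the gene's strand, from RefSeq (GRCm38.p6): Dusp5 at chr19:53528895-53529144 (forward), Dusp1 at chr17:26508473-26508722 (reverse), Spry1 at chr3:37639697-37639946 (forward) and Dusp6 at chr10:99262981-99263230 (forward). Capitals mark matches to any of 6 motifs searched on both strands.
Dusp5: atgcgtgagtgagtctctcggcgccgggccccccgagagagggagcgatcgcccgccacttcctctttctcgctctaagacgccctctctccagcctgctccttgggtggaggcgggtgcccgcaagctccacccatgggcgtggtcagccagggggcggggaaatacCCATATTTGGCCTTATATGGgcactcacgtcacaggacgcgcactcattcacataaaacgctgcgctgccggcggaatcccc
Dusp1: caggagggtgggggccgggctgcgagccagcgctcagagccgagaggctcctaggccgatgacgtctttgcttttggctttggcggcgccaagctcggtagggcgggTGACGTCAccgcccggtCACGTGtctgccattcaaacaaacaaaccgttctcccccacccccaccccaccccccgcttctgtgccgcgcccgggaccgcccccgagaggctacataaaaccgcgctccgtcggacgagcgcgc
Spry1: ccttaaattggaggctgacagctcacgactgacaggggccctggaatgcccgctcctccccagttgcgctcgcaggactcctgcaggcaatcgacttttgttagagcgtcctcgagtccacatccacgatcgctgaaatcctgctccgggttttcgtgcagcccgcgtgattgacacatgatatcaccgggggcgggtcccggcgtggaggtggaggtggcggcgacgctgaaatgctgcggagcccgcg
Dusp6: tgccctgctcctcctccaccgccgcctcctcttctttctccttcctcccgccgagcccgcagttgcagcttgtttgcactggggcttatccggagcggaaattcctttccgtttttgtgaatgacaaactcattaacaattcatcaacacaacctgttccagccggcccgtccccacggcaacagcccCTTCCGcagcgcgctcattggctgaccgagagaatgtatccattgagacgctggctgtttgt
The motifs were the CArG box bound by SRF (given here by name), the cAMP response element TGACGTCA and the AP-1 site TGANTCA. The E-box CACGTG, the ETS site CGGAAG and the TATA box TATAAA were searched as well. Other forms of these sites were not searched and are not marked. Dusp5 held 2 adjoining CArG boxes, 82 to 73 and 72 to 63 bases before the start; 1.47% of the 32851 promoter windows of this length hold at least 1. Dusp1 held a cAMP response element 143 to 136 bases before the start (1.55% of windows) and an E-box 126 to 121 bases before it (6.02%). Dusp6 held the ETS site CGGAAG on the opposite strand 62 to 57 bases before the start (13.6%). The Spry1 window had no match, and AP-1 sites (6.75% of windows) and TATA boxes (12.4%) were found in none of the 4. No matches overlapped. Promoter rows were found for 7 of the 10 genes, and a match describes letters in this window only. Among those not shown, Spred1 held CGGAAG 17 to 12 bases before its start, and Etv5 and Spry2 held no match. A link between matches and levels was not tested.

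Among the phosphatases, Dusp4 was listed higher and Dusp5 lower in both labelled knockouts than in both controls, and neither passed the threshold. Dusp4 (chromosome 8, 34807610 to 34819894), a nuclear phosphatase of ERK and of the stress kinases, was listed at 46.0 and 34.0 TPM in controls 1 and 2 and at 82.6 and 87.1 TPM in labelled knockouts 1 and 2. Both labelled knockouts lay above both controls and close to each other. The log2 fold change was 1.08 ± 0.35 SE (limma adjusted p = 0.227), from 40.0 ± 8.48 to 84.8 ± 3.14 TPM (SD, n = 2 in each group). Direction held in 11 of 11 alternative settings, with values from 0.87 to 1.30, and limma gave adjusted p from 0.127 to 0.875.

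Dusp5 (chromosome 19, 53529145 to 53541809), a nuclear phosphatase selective for ERK, was listed at 26.0 and 39.7 TPM in the controls, 12.0 TPM in labelled knockout 1 and 3.13 TPM in labelled knockout 2. The groups did not overlap, and labelled knockout 2 was 3.83-fold below labelled knockout 1. The log2 fold change was -2.18 ± 0.62 SE (limma adjusted p = 0.182), from 32.9 ± 9.68 to 7.56 ± 6.26 TPM (SD, n = 2 in each group). Without labelled knockout 1 it was -3.01, in a fit where the lone knockout library was assumed to vary like the controls. Without labelled knockout 2 it was -1.35. Of the 2473 exonic bases of Dusp5 in GENCODE M21, 547 lie opposite the antisense gene AC137853.2. Whether counting used strand is not given in the sources used here, so reads of the 2 cannot be told apart.

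Dusp1 (chromosome 17, 26505591 to 26508472), an immediate-early nuclear phosphatase that also acts on p38 and JNK, was listed at 22.8 and 29.9 TPM in the controls and at 7.56 and 15.8 TPM in labelled knockouts 1 and 2. Its groups did not overlap, and the labelled knockouts differed 2.09-fold. The log2 fold change was -1.18 ± 0.51 SE (limma adjusted p = 0.323), from 26.4 ± 5.01 to 11.7 ± 5.83 TPM (SD, n = 2 in each group). Without labelled knockout 1 it was -0.69. It shares 11 exonic bases with Ergic1 on the opposite strand. Dusp6 (chromosome 10, 99263231 to 99267489), the cytoplasmic phosphatase selective for ERK, was listed at 30.5 and 41.0 TPM in the controls and at 34.7 and 46.4 TPM in labelled knockouts 1 and 2. The groups interleaved. The log2 fold change was 0.18 ± 0.39 SE (limma adjusted p = 0.871), smaller than the spread within either group, and its sign turned under median scaling (-0.03).

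**Figure D2:**
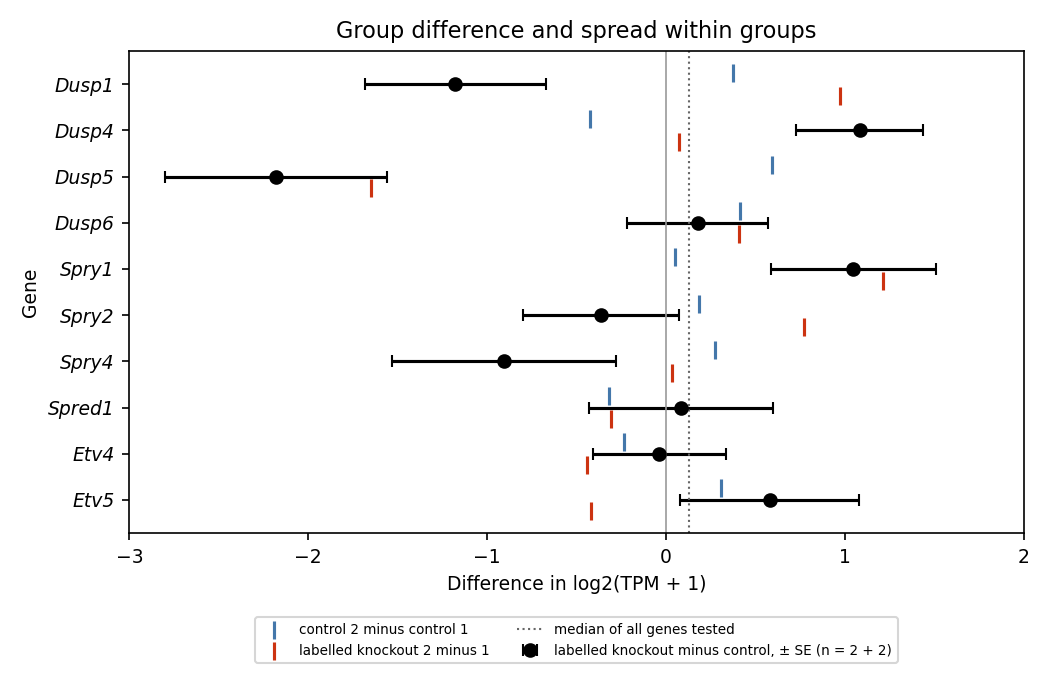
Difference in log2(TPM + 1) between labelled knockouts and controls for each gene (black points, bars ± SE from limma), with the difference between the 2 controls (blue ticks) and between the 2 labelled knockouts (red ticks) beside it; the dotted line is the median of all tested genes, 0.13. Dusp4 at 1.08 lies outside both within-group ticks, Dusp5 at -2.18 has the widest gap between labelled knockouts, and Dusp6, Spred1 and Etv4 lie near 0.

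The sum of the phosphatases overlapped between the groups while the shares of Dusp1, Dusp4 and Dusp5 did not, a comparison chosen after the values were seen. The summed TPM of Dusp1, Dusp4, Dusp5 and Dusp6 was 125 and 145 in the controls and 137 and 152 in labelled knockouts 1 and 2, and these ranges overlapped. Dusp4 made up 36.7% and 23.5% of that sum in the controls and 60.4% and 57.1% in the labelled knockouts. Dusp5 made up 20.8% and 27.5% in the controls and 8.76% and 2.05% in the labelled knockouts. Dusp1 made up 18.2% and 20.7%, then 5.53% and 10.4%. Dusp6 held 24.3% and 28.3% in the controls and 25.3% and 30.4% in the labelled knockouts, with overlap. The ratio of Dusp4 to Dusp5 was 1.77 and 0.855 in the controls and 6.9 and 27.8 in the labelled knockouts. Shares and ratios within a library do not change when all its values are multiplied by a constant. Quantile normalization can change them: the Dusp4 share was then 29.5 percentage points higher in the labelled knockouts, beside 28.7 without it. For the log2 ratio of Dusp4 to Dusp5 and for the Dusp4 share, an exact two-sided permutation test gave p = 0.333. With 2 libraries against 2, any quantity whose groups do not overlap gives this value, the smallest possible. Both quantities were chosen after the values were seen, so the outcome was fixed and the test decides nothing. Over all 10 MAP kinase phosphatases measured here, those 4 included, Dusp4 held 14.1% and 10.8% in the controls and 26.0% and 31.6% in the labelled knockouts.

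**Figure D3:**
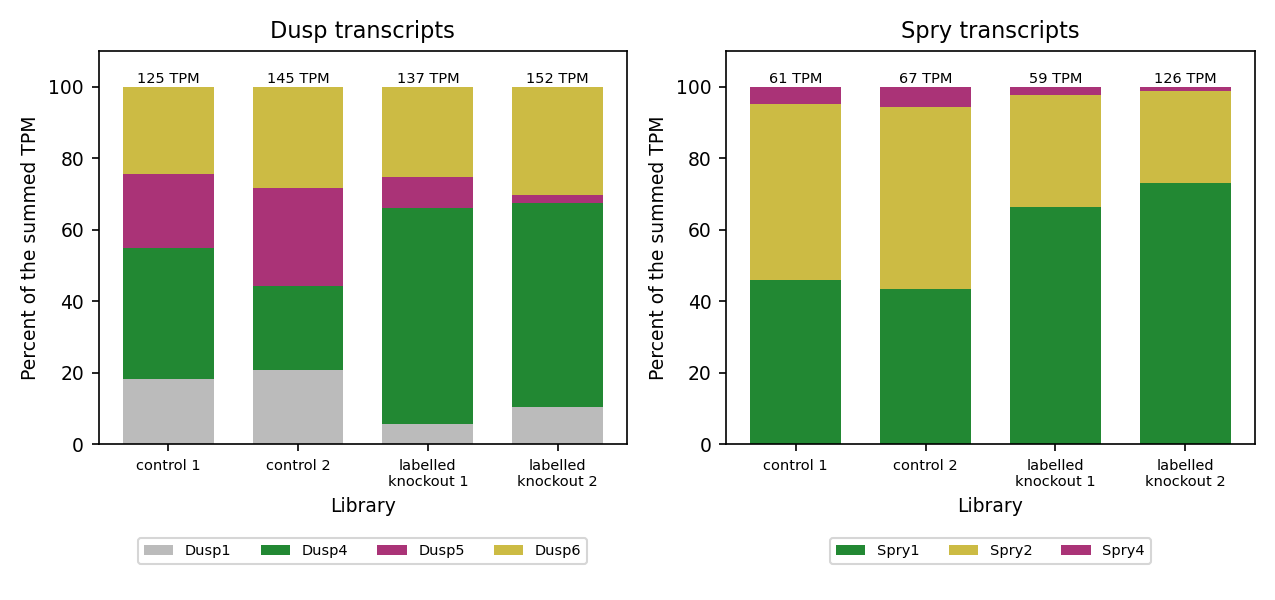
Share of each gene in the summed TPM of the 4 Dusp genes (left) and the 3 Spry genes (right), as stacked bars for each library, with the sum above each bar. The Dusp4 segment takes 23.5% to 36.7% in the controls and 57.1% to 60.4% in the labelled knockouts, and the Spry1 segment 43.4% to 46.0% and 66.3% to 73.1%.

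Of the 3 Sprouty genes, Spry1 was listed higher and Spry4 lower in both labelled knockouts than in both controls, and 0 passed the threshold. Spry1 (chromosome 3, 37639947 to 37644599), an inhibitor of Ras-ERK signalling downstream of growth factor receptors, was listed at 28.2 and 29.2 TPM in the controls, 39.3 TPM in labelled knockout 1 and 92.3 TPM in labelled knockout 2. Both labelled knockouts were above both controls, and they differed 2.35-fold, more than the controls did. The log2 fold change was 1.05 ± 0.46 SE (limma adjusted p = 0.335). Without labelled knockout 1 it was 1.65, and without labelled knockout 2 it was 0.44, each with 1 clone left in the group. Of its 2906 exonic bases, 710 lie opposite Gm42922, with the same uncertainty over strand.

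Spry4 (chromosome 18, 38586247 to 38601347), a further Sprouty inhibitor, was listed at 3.07 and 3.93 TPM in the controls and at 1.36 and 1.42 TPM in the labelled knockouts. Values within each group were close and the groups did not overlap, but at these low levels the log2 fold change was -0.91 ± 0.63 SE (limma adjusted p = 0.531); with a pseudocount of 0.1 it was -1.26. Spry2 (chromosome 14, 105891947 to 105896819), which antagonises several receptor tyrosine kinases, was listed at 29.9 and 34.1 TPM in the controls, 18.6 TPM in labelled knockout 1 and 32.5 TPM in labelled knockout 2. Only labelled knockout 1 lay below the controls (log2 fold change -0.36 ± 0.44 SE, limma adjusted p = 0.734), and without it the sign turned (0.02). The related Spred1 (chromosome 2, 117121071 to 117182279), an inhibitor that acts on Ras with neurofibromin, was listed at 10.3 and 8.09 TPM in the controls and 11.0 and 8.67 TPM in the labelled knockouts, which overlapped (0.08 ± 0.51 SE on the log2 scale, limma adjusted p = 0.958). Its sign turned under quantile normalization (-0.14) and median scaling (-0.11).

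Spry1, Spry2 and Spry4 together gave 61.2 TPM in control 1, 67.2 TPM in control 2, 59.3 TPM in labelled knockout 1 and 126 TPM in labelled knockout 2, so labelled knockout 2 alone stood apart. Spry1 made up 46.0% and 43.4% of the sum in the controls and 66.3% and 73.1% in the labelled knockouts. Spry2 made up 49.0% and 50.8% in the controls and 31.4% and 25.7% in the labelled knockouts. Shares of a sum move together, and the TPM of Spry2 itself overlapped between the groups. These shares were also chosen after the values were seen. Spry1 and Spry2 were near parity in the controls, at ratios of 0.94 and 0.854, and stood at 2.11 and 2.84 in the labelled knockouts.

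Of the PEA3 factors, Etv4 (chromosome 11, 101769747 to 101785310), which drives motility and branching programmes in epithelium, was listed at 52.5 and 44.5 TPM in the controls and at 55.1 and 40.3 TPM in labelled knockouts 1 and 2. The labelled knockouts lay on either side of the controls (log2 fold change -0.04 ± 0.37 SE, limma adjusted p = 0.975). Etv5 (chromosome 16, 22381313 to 22439570), its close relative, was listed at 8.05 and 10.2 TPM in the controls and at 16.4 and 12.0 TPM in the labelled knockouts, without overlap (log2 fold change 0.58 ± 0.50 SE, limma adjusted p = 0.619). Etv4 exceeded Etv5 in all 4 libraries, with ratios of 6.53 and 4.37 in the controls and 3.36 in both labelled knockouts.

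The other genes of the pathway were followed in 6 lists. Of the 69 tested, 0 passed an adjusted p of 0.05 in limma, 7 were higher and 7 lower at an unadjusted p under 0.05. Over all tested genes these shares were 0.0537%, 9.25% and 5.68%, against which the counts of each list are also to be read. With either control left out, the counts of higher and of lower genes fell both in these lists and over all tested genes. Among the 6 other MAP kinase phosphatases 1 was lower at that level: Dusp8, which acts on JNK and p38, was listed at 40.7 and 57.7 TPM in the controls and at 13.2 and 12.1 TPM in the labelled knockouts (log2 fold change -1.86 ± 0.42 SE, limma adjusted p = 0.137). The median log2 fold change of this list was -0.22; it was 0.18 without control 1, 0.12 without labelled knockout 2 and -0.63 without control 2. Of the 11 tested of 13 other receptor and Ras antagonists, 0 reached an unadjusted p of 0.05 (median -0.02), and Errfi1, the feedback inhibitor of the EGF receptor family, was listed at 92.8 and 128 TPM in the controls and at 102 and 113 TPM in the labelled knockouts.

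The other ERK-induced transcripts had the widest range of the 6 lists. Of 12 tested, 4 were lower (Fosl1, Myc, Epha2 and Ccnd1) and 2 higher (Fos and Ier2) at an unadjusted p under 0.05, with a median log2 fold change of 0.12; Ccnd1, Fos and Ier2 are named here to complete the count, after their values were seen. Fosl1, the AP-1 subunit FRA-1 whose transcript and protein depend on ERK, was listed at 247 and 354 TPM in the controls, 40.1 TPM in labelled knockout 1 and 6.07 TPM in labelled knockout 2 (log2 fold change -4.12 ± 0.70 SE, limma adjusted p = 0.0676). Myc, a growth-promoting transcription factor, was listed at 716 and 659 TPM and then at 311 and 106 TPM (-1.91 ± 0.46 SE, limma adjusted p = 0.147). Epha2, an ephrin receptor induced by ERK, was listed at 150 and 198 TPM and then at 80.8 and 44.9 TPM (-1.50 ± 0.38 SE, limma adjusted p = 0.154). For all 3, as for Dusp5, labelled knockout 2 was the lowest library. Fos, an immediate-early AP-1 subunit, went the other way, at 8.77 and 7.06 TPM in the controls, 25.5 TPM in labelled knockout 1 and 155 TPM in labelled knockout 2 (2.86 ± 0.74 SE, limma adjusted p = 0.159). Ccnd1, which encodes cyclin D1, was listed at 277 and 429.7 TPM and then at 171 and 223 TPM, and Ier2, an immediate-early gene, at 108 and 115 TPM and then at 177 and 234 TPM. Spry1 was, like Fos, highest in labelled knockout 2. These folds depended on which labelled knockout was used. Without labelled knockout 1 the log2 fold changes were -5.39 for Fosl1, -2.68 for Myc, -1.92 for Epha2 and 4.14 for Fos. Without labelled knockout 2 they were -2.85, -1.14, -1.09 and 1.58. Each of these fits sets 1 clone against 2 controls, so only effect sizes are given.

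**Figure D4:**
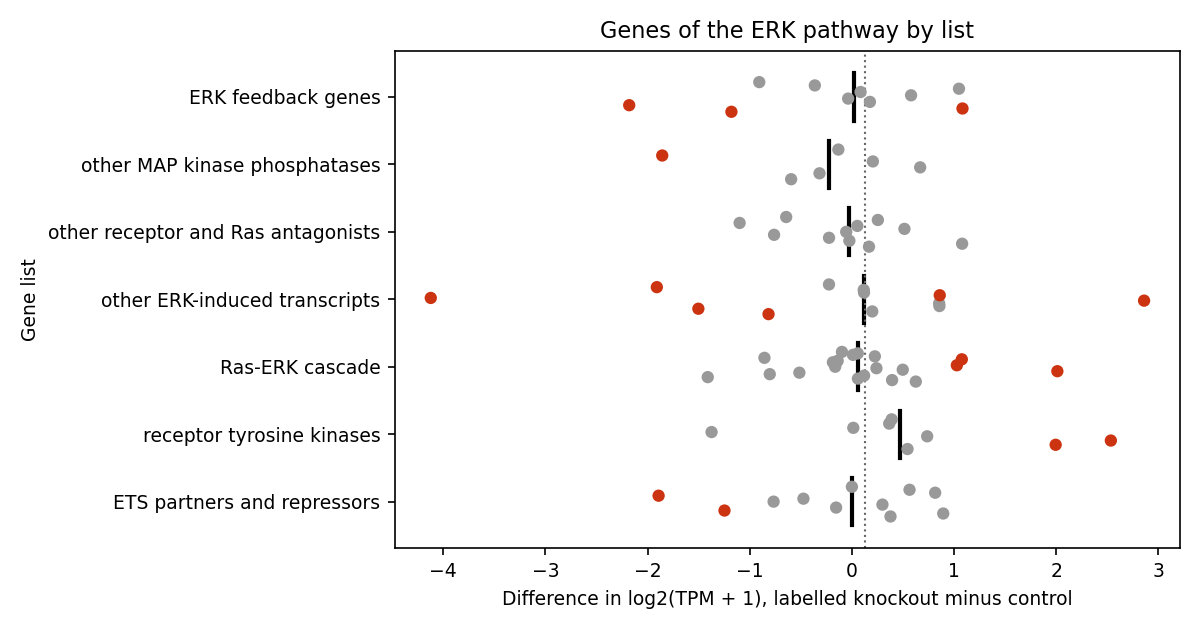
Difference in log2(TPM + 1), labelled knockout minus control, for each tested gene of the ERK pathway by list; red points have an unadjusted limma p under 0.05, black bars are list medians and the dotted line is the median of all tested genes. The ERK feedback genes span -2.18 to 1.08 and the other ERK-induced transcripts -4.12 to 2.86.

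Upstream, the 21 genes of the Ras-ERK cascade had a median log2 fold change of 0.06, with 3 higher and 0 lower at an unadjusted p under 0.05. Mapk3, which encodes ERK1, was listed at 72.2 and 84.6 TPM in the controls and at 126 and 204 TPM in the labelled knockouts (1.03 ± 0.35 SE, limma adjusted p = 0.239). The scaffold gene Ksr1 was listed at 2.31 and 0.63 TPM and then at 7.27 and 9.6 TPM (limma adjusted p = 0.219). Rps6ka1, a kinase that ERK activates, was listed at 36.2 and 19.6 TPM and then at 65.1 and 50.6 TPM (limma adjusted p = 0.284). Of 11 receptor tyrosine kinases, 8 were tested and 2 were higher. Erbb2 was listed at 16.7 and 10.6 TPM and then at 48.1 and 64.9 TPM (1.99 ± 0.43 SE, limma adjusted p = 0.136), and its partner Erbb3 at 9.11 and 1.93 TPM and then at 26.1 and 35.8 TPM (2.53 ± 0.65 SE, limma adjusted p = 0.158). Without labelled knockout 2 the value of Mapk3 was 0.68, and without control 2 those of Rps6ka1 and Erbb3 were 0.65 and 1.64, beside 1.50 and 3.43 without control 1. The receptors Fgfr1, Fgfr4 and Pdgfrb were listed at 0 in all 4 libraries.

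Of 12 ETS partners and repressors, 11 were tested and 2 were lower at an unadjusted p under 0.05, with a median of 0.0001. Ets1, an ETS factor, was listed at 81.1 and 68.1 TPM in the controls. In labelled knockouts 1 and 2 it was listed at 8.74 and 41.3 TPM. Its log2 fold change was -1.89 ± 0.63 SE (limma adjusted p = 0.232), -2.95 without labelled knockout 2 and -0.83 without labelled knockout 1. Det1, part of a ubiquitin ligase that targets ETV proteins, was listed at 18.7 and 26.6 TPM and then at 10.2 and 7.61 TPM (-1.25 ± 0.48 SE, limma adjusted p = 0.278). Cic, the repressor of Etv and other ERK target genes, was listed at 18.9 and 10.7 TPM in the controls and at 22.0 and 34.0 TPM in the labelled knockouts (0.89 on the log2 scale). Without labelled knockout 1 the log2 fold changes of Dusp8, Mapk3, Erbb2 and Erbb3 were -1.91, 1.37, 2.21 and 2.76, with 1 clone left.

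The genes most like Dusp6 across the 4 libraries, by distance between centred log2(TPM + 1) values, were Bloc1s1 (distance 0.03), Grcc10 (0.08) and 1700061G19Rik (0.09). With 4 libraries this is a description of the pattern across them only. Bloc1s1 was listed at 179 and 240.1 TPM in the controls and at 207 and 275 TPM in the labelled knockouts.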

How the data were processed

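Each of the 4 tables pairs gene symbols with TPM, per the file headers: transcript abundance per length, scaled to the same total in every library. The submitters' processing notes name STAR 2.6.0, RSEM 1.3.0 and the build mm10; settings and annotation are not given in the sources used here. Libraries were made from oligo(dT)-selected, fragmented and poly(A)-tailed RNA with PCR amplification, per the labels' protocols. The authors' deposited TPM carries no read number, so depth is unknown, no counting interval applies and count models were not used.

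The 11167 genes that reached a TPM of 1 in 2 or more libraries entered as log2(TPM + 1), and the groups were compared in R 4.3.3 by limma 3.58.1 (lmFit, eBayes with trend, two-sided, Benjamini-Hochberg over all tested genes, threshold 0.05), with no covariate. Fold changes on this scale understate changes of weakly expressed genes. The procedure was run on simulated data with independent noise drawn from its own variances and no clone or scaling effect. That run cannot show how the procedure performs on these libraries. Rfwd2 stood in for Cop1, through RefSeq synonyms of GRCm38.p6; Spry3 was not analysed here. Promoters and gene positions are from RefSeq GRCm38.p6, the assembly that mm10 names, and exon overlaps from GENCODE M21.

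The 10 genes and the lists were chosen with earlier results of these data known. Named genes were the 10, Fas, up to 3 per list with the smallest unadjusted p under 0.05, and the 3 genes nearest to Dusp6; others were named after their values were seen. The alternatives were a pseudocount of 0.1, no filter, no variance trend, robust eBayes, quantile normalization, median scaling, the replicate number as a block, and leaving out each library. Shares and ratios within a library were added after seeing the data, with an exact two-sided permutation test over the libraries.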

Additional observations from a re-analysis of the deposited data

How the results depend on the processing

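With all 4 libraries, none of the 10 genes passed the threshold under any of the 7 alternatives. Dusp1, Dusp4, Dusp5, Spry1, Spry4 and Etv5 kept their direction in all 11 alternatives. Dusp6 turned to -0.030 under median scaling, and Spred1 to -0.14 under quantile normalization and -0.11 under median scaling; these scalings moved the median of all genes from 0.13 to 0.002 and -0.06, and the share of higher genes among those at an unadjusted p under 0.05 from 62.0% to 51.9% and 44.5%. Leaving out each library gave -1.67 to -0.69 for Dusp1, -3.01 to -1.35 for Dusp5, 0.37 to 0.79 for Etv5, -0.031 to 0.38 for Dusp6, 0.44 to 1.65 for Spry1, -0.75 to 0.022 for Spry2, -0.074 to 0.24 for Spred1, -0.26 to 0.18 for Etv4 and -1.42 to 0.16 for Fas. The sign turned without control 1 or labelled knockout 2 for Dusp6 and Etv4, without control 2 or labelled knockout 1 for Spred1, and without labelled knockout 1 for Spry2 and Fas.

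The median of the 10 genes was 0.02, -0.14 under quantile normalization and -0.17 under median scaling. Medians also moved to -0.18 for the Ras-ERK cascade under quantile normalization, to -0.20 for ETS partners and -0.23 for receptor and Ras antagonists under median scaling, and to 0.70 for receptor tyrosine kinases with a pseudocount of 0.1. Leaving out each library gave medians of -0.11 to 0.078 for the 10 genes, -0.63 to 0.18 for the other MAP kinase phosphatases, -0.23 to -0.037 for the antagonists, -0.44 to 0.38 for ERK-induced transcripts, -0.22 to 0.26 for the cascade and 0.23 to 0.72 for the receptors. Between the controls, the difference (control 2 minus control 1) became 0.018 for Dusp4 under median scaling, 0.17 and 0.092 for Spred1 and 0.083 and 0.21 for Etv4 under quantile normalization and median scaling.

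The count of all genes past the threshold, 6, fell to 0 under 5 settings (the smaller pseudocount, no filter, no trend, quantile normalization and median scaling) and was 52 under robust eBayes. With a library left out it ran from 0 to 1034 (0 without either control, 194 without labelled knockout 2 and 1034 without labelled knockout 1; 469 to 2713 at an unadjusted p under 0.05, beside 1667). Of the 10 genes, 2 were higher at an unadjusted p under 0.05 under robust eBayes, and 1 was lower without the filter, where Dusp1 left the count. Leaving out a library gave 0 to 2 past the threshold, 0 to 2 higher and 0 to 2 lower. Of the other pathway genes, 4 were higher at that level without the trend, and leaving out a library gave 2 to 7 higher, 1 to 9 lower and 0 to 8 past the threshold. The cause of these changes was not tested.

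Deviations from the group means correlated across genes at -0.081 between libraries with the same replicate number. With 2 libraries per group both pairs give the same value. It cannot show whether same-numbered libraries were handled together. In the fit with a replicate block, 2 of all genes passed and 0 of the 10 did; 2 of the 10 were higher at an unadjusted p under 0.05, and the adjusted p was 0.214 for Dusp5, 0.258 for Dusp4 and 0.292 for Dusp1. The share of Dusp4 in the Dusp sum was 28.7 percentage points higher in the labelled knockouts (22.1 to 35.3 with a library left out).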
